A study of Mus musculus with 6 samples.

Results

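*Lif*, *Lifr*, *Il6st*, *Jak1*, *Stat3*, *Socs3*, *Pim1*, *Pim3* and *Gbx2*, 9 genes of the LIF and STAT3 pathway, were followed across 6 RNA-Seq libraries of mouse embryonic stem cells (ESCs) and embryoid bodies (EBs). They were found by symbol in a table of 21639 gene entries, in which each has 1 entry, and every one of them reached 1 RPKM (reads normalised to transcript length and to the size of the library) in every library. The study asked what the acidic patch of the histone variant H2A.Z, a charged surface of the nucleosome, contributes to gene expression as ESCs differentiate. Poly(A) RNA was sequenced from 3 lines at Day0, as ESCs, and at Day3, as EBs, with 1 library for each of the 6 conditions. The spread between cultures of 1 condition is therefore unknown, and no difference within a line or between lines was tested. The day difference over the 3 lines together was tested.

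The groups were H2AZ WT, H2AZ KD and H2AZ-AP3 variant, each at Day0 and Day3. The H2AZ WT and H2AZ-AP3 variant lines expressed a YFP-tagged H2A.Z transgene from a CMV promoter under an rtTA system. It was switched on with 1 µg/ml doxycycline, YFP-positive cells were sorted, and both lines also carried hairpins that target the 3′ UTR of the endogenous transcript. In the H2AZ-AP3 variant 3 residues of the transgene were exchanged for those of H2A (G92N, D97N and S98K, the H2A.Z residue written first). The H2AZ KD line is labelled as a knockdown. The labels give the strain V6.5 for all samples, while the protocol names KH2 ESCs as the parent of the transgenic lines. ESCs were grown in serum and LIF on irradiated fibroblasts, with a last passage without them, and EBs were kept in medium lacking LIF, so time, aggregation and loss of LIF cannot be told apart in any Day3 comparison.

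LIF is a secreted cytokine that holds mouse ESCs in an undifferentiated state. It binds the LIF receptor (*Lifr*), which pairs with the shared signalling chain gp130 (*Il6st*), and the kinase JAK1 bound to these chains phosphorylates the transcription factor STAT3. Phosphorylated STAT3 enters the nucleus and activates target genes, among them *Socs3*, whose protein shuts the receptor complex down in a feedback loop, the kinase genes *Pim1* and *Pim3*, and the homeobox gene *Gbx2*. RNA levels do not report phosphorylation, so the activity of STAT3 itself was not measured here.

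Depth, estimated from the RPKM values, was about 18 to 26.8 M reads, and between 11644 and 11802 entries reached 1 RPKM in a library. *H2afz*, which encodes H2A.Z, stood at 279 RPKM in H2AZ WT, 343 in the library labelled H2AZ KD and 304 in H2AZ-AP3 variant at Day0, and at 258, 236 and 394 RPKM at Day3. It was not lower in the library labelled H2AZ KD than in H2AZ WT at Day0. This value cannot check the label, because reads of the transgene and of the endogenous gene cannot be separated in it. H2AZ WT also carried the hairpins, so it is not a line without knockdown. The study itself reports that the hairpins depleted the endogenous transcript, measured by qRT-PCR in the transgenic lines. The 4 ESC markers that were matched were each above 100 RPKM in all libraries, the EBs included, so they do not tell the days apart. Their sum lay between 846 and 1060 RPKM, with *Pou5f1* the largest part (358 to 540 RPKM), while *Sox2* was more than 1.5-fold lower in H2AZ-AP3 variant than in H2AZ WT ESCs (110 against 191 RPKM).

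*Socs3* (chr11:117827403-117830680, minus strand, mm9, 2 exons) showed the largest difference between the days of the 9 genes in all 3 lines. Its annotated start is shown because it is the start, among those of the 9 genes, that holds the palindrome TTCNNNGAA, the spacing STAT proteins are known to bind. These letters read the same on either strand and were searched from 1000 bases before to 200 after the 5′ end of each deposited locus in the mm9 assembly. The runs below are in the direction of *Socs3* transcription, with the palindrome in capitals.
Socs3, chr11:117830816-117830844, minus strand: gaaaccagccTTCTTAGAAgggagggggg
Socs3, chr11:117830543-117830571, minus strand: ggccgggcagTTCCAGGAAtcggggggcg
The first base of the upper palindrome lay 334 bases before the GENCODE start at position 117830500, and that of the lower palindrome 61 bases before it. The other 8 genes had no match to these letters in this window, which was chosen after the sequences had been looked at. Of 19564 windows of the same length at gene starts, 30.4% held at least 1 match and 5.6% held at least 2. A match is a run of letters, and binding was not measured here.

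*Lif* (chr11:4157571-4172517, plus strand, 4 exons), which encodes the ligand, was measured at 3.97 RPKM in H2AZ WT, 4.56 in the library labelled H2AZ KD and 9.68 in H2AZ-AP3 variant ESCs, and at 2.41, 2.25 and 3.24 RPKM in the EBs of the same lines. It was the lowest or the second lowest of the 9 genes in each library, and the H2AZ-AP3 variant ESC library stood above the other 5. At Day3 the level was 1.65-fold lower in H2AZ WT (95% counting interval, 1.36 to 1.99), 2.02-fold lower in the line labelled H2AZ KD (1.70 to 2.41) and 2.98-fold lower in H2AZ-AP3 variant (2.60 to 3.43). These exact Clopper-Pearson intervals cover counting error only. Since the reads carry no molecular identifiers, repeated reads of 1 molecule may make them too narrow. Here and below, RNA from bulk cultures cannot separate fewer cells of a type from less RNA per cell.

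The receptor chains were of similar level. *Lifr* (chr15:7079572-7147489, plus strand, 19 exons), the ligand-specific chain, lay at 18.4, 17.8 and 17 RPKM in the H2AZ WT, H2AZ KD-labelled and H2AZ-AP3 variant ESC libraries and at 12, 15.7 and 11.7 RPKM in the EB libraries. The 3 ESC libraries were within 1.08-fold of each other. *Il6st* (chr13:113254278-113297068, plus strand, 15 exons), the chain shared by the cytokine family, lay at 21.4, 23.4 and 25.6 RPKM at Day0 and at 15.2, 17.4 and 13.7 RPKM at Day3. Both were lower at Day3 in each line. For *Lifr* the difference was 1.54-fold in H2AZ WT, 1.13-fold in the line labelled H2AZ KD and 1.45-fold in H2AZ-AP3 variant. For *Il6st* it was 1.41-fold, 1.34-fold and 1.87-fold in the same order. The ratio of *Il6st* to *Lifr* RPKM stayed between 1.11 and 1.5 in the 6 libraries, with its highest value in H2AZ-AP3 variant ESCs.

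*Jak1* (chr4:100741643-100937887, minus strand, 25 exons), the receptor-bound kinase gene, differed least between the days. It was measured at 16.9, 14.6 and 16.4 RPKM at Day0 and at 13.4, 13.9 and 13.0 RPKM at Day3, in the order H2AZ WT, H2AZ KD label and H2AZ-AP3 variant. The lowest ESC value was 1.05 times the highest EB value. The counting interval of the Day3 difference included 0 in the line labelled H2AZ KD (log2 change -0.07, -0.17 to 0.03) and not in the other lines (log2 change -0.34 in each). The deposited locus overlaps that of *Raver2*, and reads in the overlap may be shared between them.

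*Stat3* (chr11:100748124-100800825, minus strand, 24 exons), the transcription factor gene, was measured at 20 RPKM in H2AZ WT, 20.9 in the library labelled H2AZ KD and 26.2 in H2AZ-AP3 variant ESCs. In EBs it was measured at 12.5, 11.7 and 11.1 RPKM. H2AZ-AP3 variant thus had the highest level of the ESC libraries and the lowest of the EB libraries. The Day3 level was 1.60-fold lower in H2AZ WT (1.44 to 1.77), 1.78-fold lower in the line labelled H2AZ KD (1.62 to 1.96) and 2.36-fold lower in H2AZ-AP3 variant (2.15 to 2.59).

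**Figure D1:**
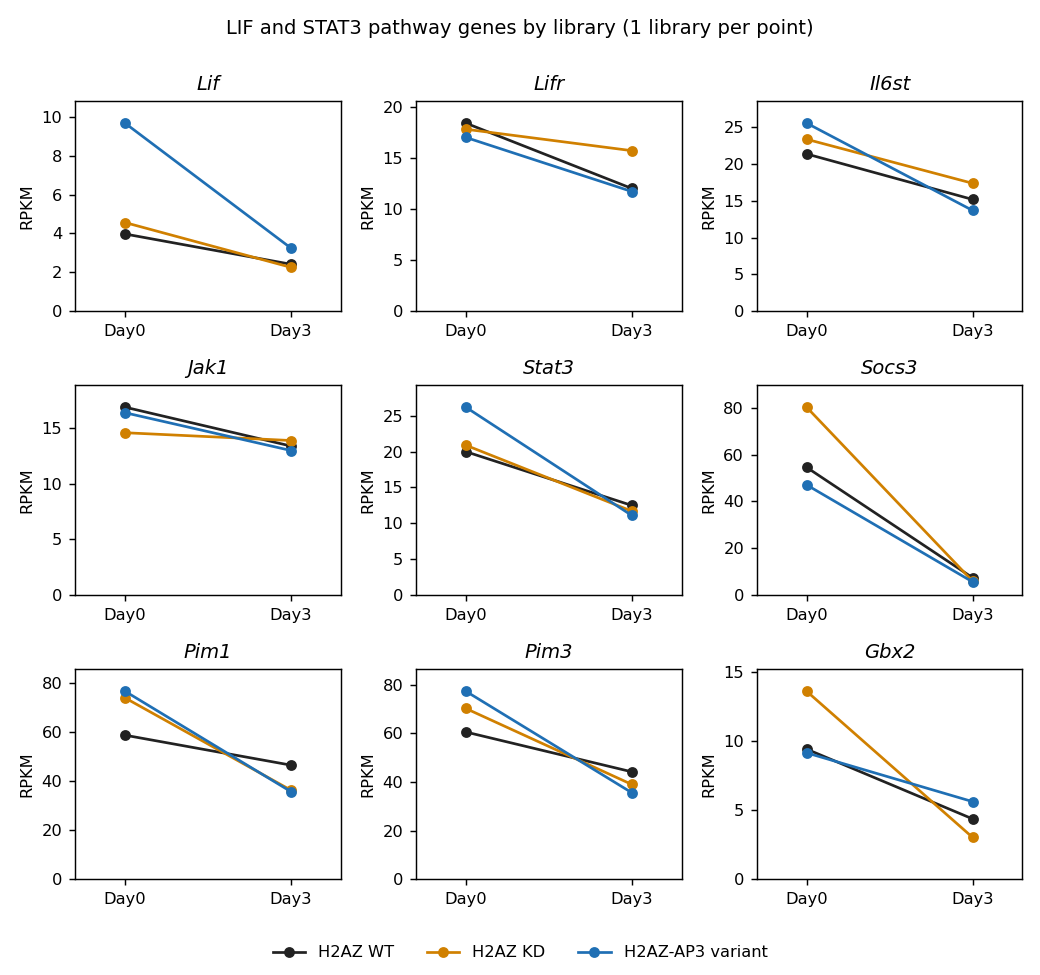
RPKM of each of the 9 genes (vertical axes, linear, starting at 0) at Day0 and Day3, with 1 point per library and lines joining the libraries of 1 cell line. All 9 genes have their 3 Day3 points below their 3 Day0 points, by the smallest margin for *Jak1* and by the largest for *Socs3*.

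*Socs3*, the feedback inhibitor gene, was measured at 54.6 RPKM in H2AZ WT, 80.3 in the library labelled H2AZ KD and 47.1 in H2AZ-AP3 variant ESCs. In EBs it was measured at 7.42, 5.95 and 5.65 RPKM. The lowest ESC library was 6.34 times the highest EB library. The Day3 level was 7.35-fold lower in H2AZ WT (6.60 to 8.20), 13.5-fold lower in the line labelled H2AZ KD (12.2 to 15.0) and 8.32-fold lower in H2AZ-AP3 variant (7.41 to 9.39). Its place among all entries moved from between the percentiles 92.9 and 96.2 in ESCs to between 63.9 and 67.4 in EBs. Set against the gene for its activator, *Socs3* RPKM was 1.79 to 3.84 times that of *Stat3* in ESCs and 0.507 to 0.595 times that of *Stat3* in EBs, so the order of these genes turned over between the days in each line.

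The kinase genes *Pim1* (chr17:29627990-29632404, plus strand, 6 exons) and *Pim3* (chr15:88692624-88696156, plus strand, 6 exons) are on different chromosomes, and their protein products promote survival and growth. *Pim1* was measured at 58.6, 73.8 and 76.5 RPKM at Day0 and at 46.4, 36.2 and 35.6 RPKM at Day3. *Pim3* was measured at 60.6, 70.3 and 77.4 RPKM at Day0 and at 44.2, 39.0 and 35.6 RPKM at Day3. Their levels stayed close to each other, with a *Pim1* to *Pim3* ratio of 0.928 to 1.05 over the 6 libraries. In H2AZ WT the Day3 difference was under 1.5-fold for each, at 1.26-fold for *Pim1* and 1.37-fold for *Pim3*. In the other lines it was larger: 2.04-fold and 1.80-fold in the line labelled H2AZ KD, and 2.15-fold and 2.18-fold in H2AZ-AP3 variant.

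*Gbx2* (chr1:91824537-91827751, minus strand, 2 exons), the homeobox gene, was measured at 9.41, 13.6 and 9.14 RPKM at Day0 and at 4.36, 3.02 and 5.61 RPKM at Day3. The library labelled H2AZ KD was thus highest in ESCs and lowest in EBs. The Day3 level was 2.16-fold lower in H2AZ WT (1.81 to 2.59), 4.49-fold lower in the line labelled H2AZ KD (3.78 to 5.37) and 1.63-fold lower in H2AZ-AP3 variant (1.4 to 1.9).

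Counted together, 5 of the 9 genes were more than 1.5-fold lower at Day3 in H2AZ WT, where 10.6% of all entries with at least 1 RPKM in either library were that much lower. In the line labelled H2AZ KD it was 6 of 9 against 9.86% of entries, and in H2AZ-AP3 variant 7 of 9 against 13.1%. None of the 9 was higher at Day3 in any of the 3 lines. With a pseudocount of 1, *Lif* and *Lifr* came in under the threshold in H2AZ WT and the count there was 3, while the share of all entries past 1.5-fold in either direction went from 23% to 16.1%. The members' median log2 change was -0.62, -0.85 and -1.10 in H2AZ WT, the line labelled H2AZ KD and H2AZ-AP3 variant, beside a median of 0.04 over all entries in each line. All 9 were lower in all 3 lines, as were 21.3% of entries. *Lif*, *Stat3*, *Socs3* and *Gbx2*, 4 of the 9, were more than 1.5-fold lower in every line, as were 4.81% of entries. All 9 had their 3 EB libraries below their 3 ESC libraries, as had 14.4% of entries.

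The day difference was also tested over the 3 lines, each line's ESC and EB library forming a pair (limma on log2(RPKM + 1), two-sided, Benjamini-Hochberg adjustment over 12702 entries, 2 residual degrees of freedom). At an adjusted p under 0.05, 7 of the 9 genes were lower at Day3 and none higher, where 5.11% of entries were lower. *Socs3* had the largest difference, -3.04 (95% interval, -3.45 to -2.63; limma adjusted p = 0.000204), followed by *Gbx2* at -1.14 (-1.67 to -0.62; adjusted p = 0.0233). *Lif* (-0.88, adjusted p = 0.0235), *Stat3* (-0.86, 0.0114), *Pim1* (-0.81, 0.0271), *Pim3* (-0.79, 0.02) and *Il6st* (-0.58, 0.0377) also passed. *Lifr* (-0.42, -0.72 to -0.12; adjusted p = 0.0878) and *Jak1* (-0.23, -0.51 to 0.05; adjusted p = 0.26) did not, although both were lower in 3 of 3 lines. The lines are different genotypes that stand in for replicates here, so these values measure how far the day difference varied among the lines. Without the filter on low values limma called 0 members and 0 of all entries after adjustment, with 8 members at an unadjusted p under 0.05.

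**Figure D2:**
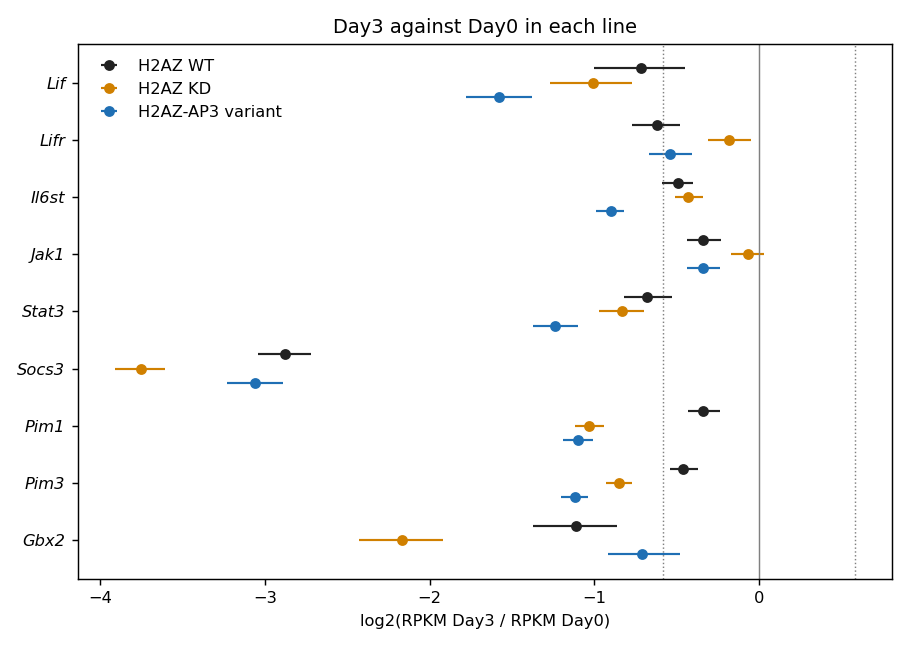
Log2 ratio of Day3 to Day0 RPKM (horizontal axis) for each gene and line, with bars for the 95% counting interval and dotted lines at 1.5-fold. Every point lies below 0, and the *Jak1* bar of the line labelled H2AZ KD reaches past 0.

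Markers of other cells moved with the day. Primitive endoderm markers summed to 7.6, 11.2 and 26 RPKM in the H2AZ WT, H2AZ KD-labelled and H2AZ-AP3 variant ESC libraries and to 33.7, 54.2 and 32.7 RPKM in the EB libraries. Epiblast and streak markers summed to 6.24, 8.16 and 3.23 RPKM at Day0 and to 32.5, 35.2 and 25.5 RPKM at Day3. *Otx2* (4.22 to 22.3 RPKM in H2AZ WT) and *Fgf5* (0.539 to 7.34 RPKM) made up most of this rise. *T* and *Mixl1* on the same list were under 1 RPKM in every library, and *Eomes* stayed between 1.07 and 2.39 RPKM. The 7 fibroblast markers summed to 26.1, 22.9 and 44.9 RPKM at Day0 and to 12.7, 7.23 and 9.35 RPKM at Day3, while *Lum* and *Postn* among them were listed at 0 in some libraries. *Col1a1*, a collagen gene of fibroblasts, went from 9.76 to 1.54 RPKM in H2AZ WT. *Thy1*, a surface marker on the same list, went the other way in each line, from 1.74 to 9.19 RPKM in H2AZ WT, from 2.42 to 5.48 in the line labelled H2AZ KD and from 1.74 to 3.56 in H2AZ-AP3 variant, so it makes up most of the Day3 sum in H2AZ WT. Trophectoderm markers summed to between 15.8 and 28.5 RPKM in the 6 libraries, with *Elf5* at 0 in each. *Tfap2c* (13.5 to 24.7 RPKM) made up most of that sum, and *Cdx2* was at most 0.515 RPKM. The part of these cells in the Day3 differences of the 9 genes was not tested.

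The size of the Day3 difference was also compared between lines, as the log2 change in a line minus that in H2AZ WT. In H2AZ-AP3 variant the difference was more negative than in H2AZ WT for 7 of the 9 genes, where 50.7% of entries were more negative. *Lif* differed by -0.86, *Pim1* by -0.77, *Pim3* by -0.67, *Stat3* by -0.56 and *Il6st* by -0.41, against a median of -0.01 over all entries. *Jak1* (-0.01) and *Lifr* (0.08) had nearly the same change in these lines, and *Gbx2* went the other way (0.40). In the line labelled H2AZ KD 6 of the 9 genes were more negative, where 48.9% of entries were. *Gbx2* differed by -1.06, *Socs3* by -0.88 and *Pim1* by -0.69, while *Lifr* (0.44) and *Jak1* (0.27) changed less than in H2AZ WT. These values all rest on the same pair of H2AZ WT libraries, and without replicate libraries none of them was tested.

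Against H2AZ WT, the ESC library of H2AZ-AP3 variant differed by more than 1.5-fold in 1 of the 9 genes, beside 13.9% of all entries in either direction. The gene was *Lif*, 2.44-fold higher in H2AZ-AP3 variant (counting interval, 2.13 to 2.80). *Stat3* and *Pim1* (log2 difference 0.39 for each), *Pim3* (0.35) and *Il6st* (0.26) were higher by less than 1.5-fold, and *Socs3* (-0.21) was lower. *Lifr* (-0.11), *Jak1* (-0.04) and *Gbx2* (-0.04) were closest to H2AZ WT. The members' median was 0.26, beside 0.00 over all entries. At Day3 none of the 9 passed 1.5-fold, beside 10.2% of entries. *Lif* remained higher in H2AZ-AP3 variant at a log2 difference of 0.43 (0.15 to 0.70), and *Gbx2* was higher by 0.36, while *Socs3* (-0.39), *Pim1* (-0.38) and *Pim3* (-0.31) were lower. The median at Day3 was -0.15, beside -0.01.

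The libraries labelled H2AZ KD differed from H2AZ WT by more than 1.5-fold in none of the 9 genes at either day, beside 8.02% of entries at Day0 and 8.59% at Day3. *Socs3* came closest at Day0, with a log2 difference of 0.56 (0.48 to 0.63), followed by *Gbx2* at 0.53 (0.33 to 0.72) and *Pim1* at 0.33. Centring the libraries on their median ratio moved *Socs3* to 0.59, just past the threshold of 0.58. *Jak1* was lower by 0.21 on the log2 scale. At Day3 *Gbx2* (-0.53), *Pim1* (-0.36) and *Socs3* (-0.32) were lower and *Lifr* (0.39) was higher. The members' median was 0.20 at Day0, beside -0.03 over all entries, and -0.10 at Day3, beside -0.03. Comparisons of either line use the same H2AZ WT libraries, so they are not independent of each other.

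**Figure D3:**
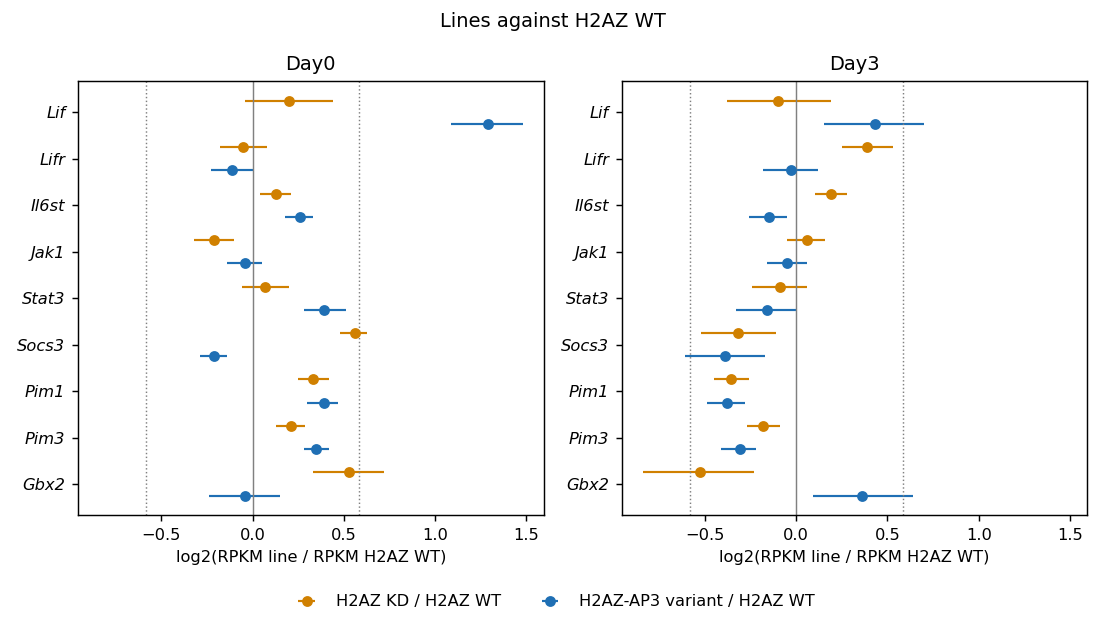
Log2 ratio of RPKM in the library labelled H2AZ KD (orange) or H2AZ-AP3 variant (blue) to H2AZ WT (horizontal axes), at Day0 on the left and Day3 on the right, with bars for the 95% counting interval and dotted lines at 1.5-fold. *Lif* in H2AZ-AP3 variant at Day0, at 1.29, is the point beyond the dotted lines.

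Other genes of the pathway were taken from lists of cytokines, receptor chains, kinases and STATs, inhibitors and reported STAT3 targets, 47 of whose 49 genes were found. Over the 5 lists together, 12 of the 41 genes that reached 1 RPKM were more than 1.5-fold lower at Day3 in H2AZ WT (10.6% of all entries) and 3 were higher (12.4% of all entries). In the line labelled H2AZ KD 11 of 42 were lower (9.86% of entries) and 3 higher (12.4%), and in H2AZ-AP3 variant 16 of 43 were lower (13.1% of entries) and 4 higher (11.2%). *Osmr*, the receptor chain for oncostatin M, pairs with gp130 like *Lifr* and lies 255 kb from *Lifr* on chromosome 15. It was measured at 1.73 RPKM in H2AZ WT, 1.34 in the library labelled H2AZ KD and 7.73 in H2AZ-AP3 variant ESCs, and at 0.0494, 0.131 and 0.362 RPKM in EBs. *Il6*, another cytokine that signals through gp130, was measured at 1.69 RPKM in H2AZ-AP3 variant and 0.507 RPKM in the library labelled H2AZ KD at Day0, and it was listed at 0 in H2AZ WT. *Osmr* and *Il6* thus had their highest level in the same library as *Lif*. *Osm*, which encodes oncostatin M and lies 16.5 kb from *Lif* on chromosome 11, stayed between 0.173 and 0.529 RPKM.

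Fibroblast markers stood beside these values. In H2AZ-AP3 variant against H2AZ WT ESCs, *Col1a1* was at 15.5 against 9.76 RPKM, *Col1a2* at 22.5 against 12.9, *Col3a1* at 2.47 against 1.28 and *Dcn*, which encodes the matrix protein decorin, at 2.46 against 0.321. Of the 5 fibroblast markers that reached 1 RPKM, 4 were more than 1.5-fold higher and *Thy1* was at 1.74 RPKM in each, while *Lum* was at 0.333 against 0 and *Postn* was at 0 in H2AZ-AP3 variant. The primitive endoderm markers *Gata4* (12.1 against 3.24 RPKM) and *Gata6* (9.84 against 2.96 RPKM) were also higher. The part of these cells in the *Lif*, *Osmr* and *Il6* differences was not tested.

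**Figure D4:**
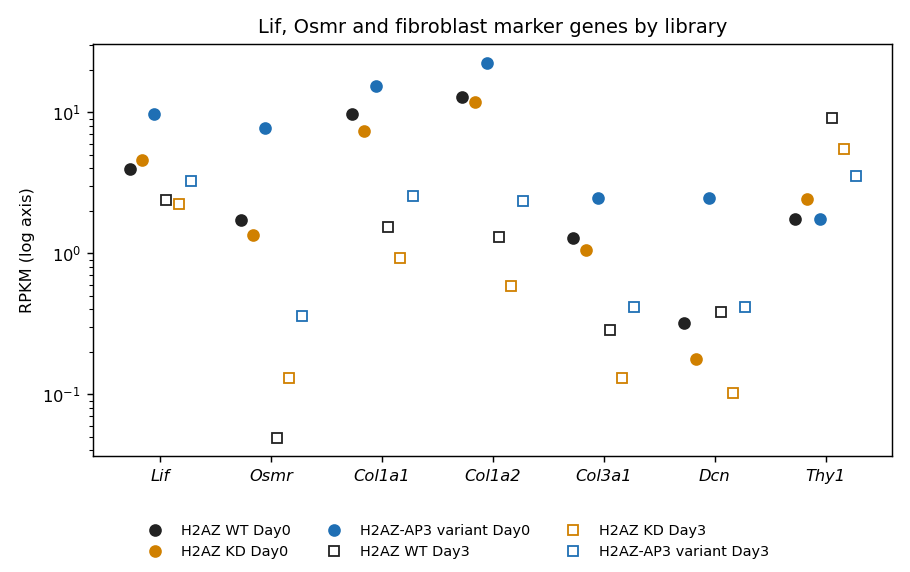
RPKM on a log axis (vertical) of *Lif*, *Osmr* and 5 of the 7 fibroblast markers (*Lum* and *Postn*, listed at 0 in some libraries, are not drawn), with 1 point per library, filled circles for Day0 and open squares for Day3. H2AZ-AP3 variant at Day0 (filled blue) has the highest value of each gene shown except *Thy1*, which is highest in H2AZ WT at Day3 (9.19 RPKM).

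Among the other cytokines *Ctf1*, which encodes cardiotrophin 1, was higher at Day3 in each line, at 3.27 against 0.918 RPKM in H2AZ WT, 1.60 against 0.895 in the line labelled H2AZ KD and 2.27 against 1.01 in H2AZ-AP3 variant. *Clcf1*, another cytokine of the family, stayed between 0.532 RPKM in H2AZ WT EBs and 1.42 RPKM in H2AZ-AP3 variant ESCs. The receptor chain gene *Il11ra1* was 1.22 to 3.14 RPKM, with its largest difference between the days in H2AZ-AP3 variant (log2 change -1.22). Of the 8 other JAK and STAT genes, 1 was more than 1.5-fold higher at Day3 in H2AZ WT (*Stat5b*, log2 change 0.73) and 1 in the line labelled H2AZ KD (*Jak2*, 0.69), beside 12.4% of all entries in each line. In H2AZ-AP3 variant *Stat2* (-0.97) and *Stat5a* (-0.63) were lower by more than 1.5-fold. *Stat5a* and *Stat5b*, which lie 1.64 kb and 36.2 kb from *Stat3*, were not lower at Day3 in H2AZ WT, where *Stat5a* went from 1.73 to 2.49 RPKM and *Stat5b* from 2.31 to 3.82 RPKM. In H2AZ-AP3 variant *Stat5a* went from 2.6 to 1.68 RPKM, the highest of the ESC and the lowest of the EB libraries, as for *Stat3*, and *Stat5b* was at 2.87 and 3 RPKM.

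The other inhibitors differed less than *Socs3*. Of 15 genes, 3 (*Socs4*, *Socs5* and *Socs6*) were more than 1.5-fold lower at Day3 in H2AZ WT, beside 10.6% of all entries, and none passed in the line labelled H2AZ KD, beside 9.86% lower and 12.4% higher. In H2AZ-AP3 variant 2 were higher (*Socs2* and the phosphatase gene *Ptpn6*) and 2 lower (*Cish* and *Socs5*), beside 11.2% and 13.1% of entries, so these counts are near the background. *Socs6* went from 16.6 to 10.5 RPKM in H2AZ WT and from 13.0 to 15.2 RPKM in H2AZ-AP3 variant, and *Socs5* went from 4.38 to 2.83 RPKM and from 5.81 to 3.68 RPKM in the same lines. *Cish*, another SOCS-family inhibitor, stayed between 0.735 and 1.76 RPKM. *Socs3* made up 44.1%, 55.2% and 43.9% of the summed RPKM of *Socs1* to *Socs7* at Day0 and 10.6%, 8.49% and 7.04% at Day3. *Socs2* (25.7 to 42.3 RPKM over the 6 libraries) was the highest member of the family in each EB library.

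The PIM kinase family also differed in its makeup between the days. *Pim2*, the third member, was measured at 11.4, 14.9 and 6.61 RPKM at Day0 and at 47.1, 31.3 and 39.5 RPKM at Day3, higher at Day3 in each line. It made up 4.12% to 9.34% of the summed RPKM of the 3 genes in ESCs and 29.4% to 35.7% in EBs. The sum itself went from 131 to 138 RPKM in H2AZ WT, from 159 to 107 RPKM in the line labelled H2AZ KD and from 161 to 111 RPKM in H2AZ-AP3 variant.

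**Figure D5:**
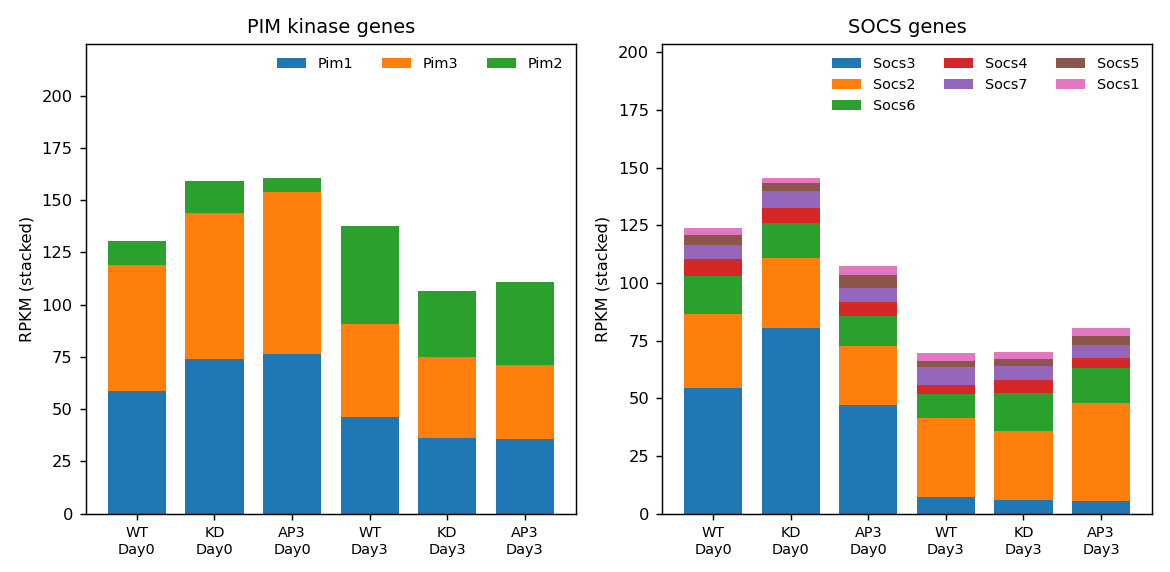
Stacked RPKM (vertical axes, starting at 0) of the PIM kinase genes and of *Socs1* to *Socs7* in each of the 6 libraries. *Pim2* (green, left) takes a larger share in the EB libraries, and *Socs3* (blue, right) a smaller one.

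Of the other reported STAT3 targets, 13 of 14 reached 1 RPKM in at least 1 library of each Day3 comparison. At Day3 7 were more than 1.5-fold lower in H2AZ WT (10.6% of all entries), 10 in the line labelled H2AZ KD (9.86%) and 8 in H2AZ-AP3 variant (13.1%), and *Pim2* was the 1 that was higher in each. *Fos*, an immediate-early transcription factor gene, was measured at 149, 122 and 66.3 RPKM at Day0 and at 1.99, 1.31 and 1.15 RPKM at Day3, a larger log2 change than that of *Socs3* in each line (-6.23, -6.53 and -5.85). *Junb*, of the same transcription factor family, was measured at 67.0, 79.6 and 45.9 RPKM at Day0 and at 8.06, 8.11 and 12.7 RPKM at Day3. The pluripotency factor gene *Klf4* was measured at 121, 131 and 65.9 RPKM at Day0 and at 17.4, 17.1 and 14.9 RPKM at Day3. Against H2AZ WT ESCs, 3 of 13 were more than 1.5-fold higher in H2AZ-AP3 variant and 3 lower, beside 13.9% of entries in either direction. The median log2 difference of the 13 was 0.02. *Cebpd* (6.2 against 2.12 RPKM), *Sbno2* (18.5 against 11.7 RPKM) and *Tfcp2l1* were higher, and *Fos*, *Klf4* and *Pim2* lower. In H2AZ-AP3 variant ESCs *Fos*, *Junb* and *Klf4* were below the other ESC libraries, as was *Socs3*, with *Junb* less than 1.5-fold below H2AZ WT. *Tfcp2l1*, a pluripotency factor gene downstream of LIF and STAT3, was highest there instead, at 42.8, 42.4 and 68.3 RPKM at Day0 and at 18.2, 16 and 11 RPKM at Day3.

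The genes whose 6 log2(RPKM + 1) values, centred on their own mean, lay nearest to those of a member were found among 11751 entries with a mean of at least 1 RPKM. *Pim1* had *Pim3* as its nearest entry, at a Euclidean distance of 0.151, followed by *Icam1* (0.228) and *Klf5* (0.232). *Pim3* had *Klf5* (0.142), *Pim1* (0.151) and *Mmp17* (0.187). *Stat3* had *Rap1gap2* (0.143), *Pim3* (0.192) and *Icam1* (0.193), so the STAT3 and PIM genes stood near each other over these 6 libraries. *Egr2* (0.694) and *Klf4* (0.777) were among the entries nearest to *Socs3*, at larger distances than those of the *Stat3* and PIM neighbours. *Lif* had *Adora2b* (0.266), *Il4ra* (0.322) and *S1pr1* (0.355), which like *Lif* were highest in H2AZ-AP3 variant ESCs. The nearest entries were *Usp34* (0.0688), *Vps13a* (0.115) and *Usp24* (0.138) for *Lifr* and *Ston1* (0.139), *Trim25* (0.147) and *Fam38a* (0.199) for *Il6st*. They were *Fads6* (0.0645), *Elmo2* (0.0663) and *Cul4b* (0.0746) for *Jak1* and *Nab2* (0.223), *Hsd17b14* (0.224) and *Mtrnr2l* (0.284) for *Gbx2*.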

How the data were processed

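RNA was enriched by oligo(dT), and the authors mapped the single-end TruSeq reads to the mm9 assembly with at most 2 mismatches and 20 locations per read. The submitters' processing notes list TopHat 1.14, Bowtie 0.12.7 and Cufflinks 1.3.0. The deposited table holds RPKM per gene from Cufflinks, and it also holds 6 columns of the authors' own log2 ratios between libraries, which were not used. Gene starts in it count from 0 and were raised by 1. Library totals are not given. The depth of a library was taken as the value between 12 and 35 M reads at which low RPKM values came nearest to whole reads. Of 3621 genes with 1 transcript over 1.5 kb, those with low values above 0 were used, 497 to 560 per library. The estimates are approximate, and the counting intervals (95%, exact) and estimated reads that rest on them are too. Estimated reads also rest on the length of the shortest coding transcript within the deposited locus. For *Lifr* this was 2836 bases, where the longest transcript has 9655.

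The log2 change of a gene is log2((RPKM + 0.001)/(RPKM + 0.001)), a scale on which low genes depend on the pseudocount. A difference was counted when it passed 1.5-fold (0.58 on the log2 scale) and the higher of the 2 values was 1 RPKM or more. With 1 library per condition these counts carry no test. The day difference over the 3 lines was tested with limma 3.58.1 in R 4.3.3, with line as a block, an intensity trend and entries of at least 1 RPKM in a library. This test was added after the data had been seen. Exons came from the GENCODE annotation of NCBIM37, the same assembly as mm9. *Tfcp2l1* and *Tfap2c* were found under older symbols, and 1 ESC marker and 2 pathway genes were not analysed here.

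The 9 genes are named with their RPKM in every library. Of each pathway list, up to 4 genes past 1.5-fold in at least 2 of the 7 comparisons were named by the largest change at a pseudocount of 1. Further list genes were named after their values were seen, where a count was 5 or fewer or for their family or position, as were the markers printed beside a result. For each member the 3 nearest entries were named, except where an item is not reported here. The members and lists were chosen with earlier results of these data known. Alternatives were pseudocounts of 0.1 and 1, no filter, centring on the median ratio, a 2-fold threshold and entries summed per symbol. Scripts were tested on simulated data. The analysis ran in Python 3.11.15 (pandas 2.3.3, numpy 2.4.6, matplotlib 3.10.9 and scipy 1.17.1).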

Additional observations from a re-analysis of the deposited data

Results flagged for a closer look

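Some differences from H2AZ WT pointed in opposite directions at the 2 days, each with a counting interval that did not include 0. The interval of *Stat3* in H2AZ-AP3 variant at Day3 (-0.33 to -0.00) came closest to it. With 1 library per condition, whether the days differ in these effects was not tested. In H2AZ-AP3 variant, log2 differences were 0.26 at Day0 and -0.15 at Day3 for *Il6st*, 0.39 and -0.16 for *Stat3*, 0.39 and -0.38 for *Pim1*, and 0.35 and -0.31 for *Pim3*. In the libraries labelled H2AZ KD, they were 0.56 at Day0 and -0.32 at Day3 for *Socs3*, 0.33 and -0.36 for *Pim1*, 0.21 and -0.18 for *Pim3*, and 0.53 and -0.53 for *Gbx2*. *Pim1* and *Pim3* thus turned in both lines, which share the H2AZ WT libraries. All of these values are under 1.5-fold.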

How the results depend on the processing

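The count of members past 1.5-fold at Day3 in H2AZ WT was 3 with a pseudocount of 1 (16.1% of all entries in either direction) and 2 with a 2-fold threshold (10.2%), against 5 (23%). With the pseudocount of 1, *Lif* went from -0.72 to -0.54 and *Lifr* from -0.62 to -0.58. Centring on the median ratio gave 1 member for the library labelled H2AZ KD against H2AZ WT at Day0, *Socs3*, which went from 0.56 to 0.59. The other counts stayed within 1.5 times their value under every alternative. Of 252 log2 values recomputed for the 9 genes, 247 stayed within their counting interval and 5 moved, by at most 0.31. None changed direction, and 3 crossed the threshold. The test over the 3 lines, added after the data had been seen, pairs the days by line. It called 7 members lower (9.93% of all entries in either direction), again 7 with a pseudocount of 0.1 (11%), 5 without H2AZ WT (3.33%), 6 without the line labelled H2AZ KD (7%), 6 without H2AZ-AP3 variant (15.1%), and 0 without the filter on low values, where the cause was not tested. Comparisons within or between lines have 1 library a side and no replicate numbers to pair by. *Lif* and *Gbx2* rest on the fewest reads (about 189 to 986 and 170 to 536 per library), and the spread between cultures limits all values and is unknown.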
